A study of Mus musculus with 12 samples.

Results

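The genes of the p53 axis examined here are Trp53, which encodes the tumour suppressor p53, its ubiquitin ligase gene Mdm2, the pro-apoptotic genes Bbc3 and Bax, and the stress hormone gene Gdf15. Every row of the authors' deposited table of N6-methyladenosine (m6A) peaks that carried one of these 5 gene names was taken, which gave 10 peaks out of 17503 in 10277 named genes. The table compares livers of Mettl3-deficient C57BL/6 mice with those of wild-type C57BL/6 mice, by sequencing of RNA fragments precipitated with an anti-m6A antibody (IP) and of input mRNA. By their titles the 12 libraries form 4 groups of 3 replicates, namely Mettl3-deficient IP, Mettl3-deficient input, wild-type IP and wild-type input. They give neither age nor sex, and how the deficiency was made is not given in the sources used here. The comparison asks how m6A in liver depends on Mettl3. No values per library were used, so depth is unknown and no spread between mice can be set beside any value.

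METTL3 is the catalytic subunit of the complex that writes m6A onto mRNA, mostly near stop codons and in 3′ UTRs, where the mark is known to affect stability and translation. p53 is a transcription factor that DNA damage and other stress stabilise. Its target genes include Mdm2, whose product marks p53 for degradation and so closes a feedback loop, Bbc3 (PUMA) and Bax, whose products open the mitochondrial outer membrane in apoptosis, and Gdf15, which is also driven by the integrated stress response.

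The sequences shown are those that place peaks of these genes on their transcript starts, from RefSeq windows of assembly GRCm38.p6, the same build as the mm10 of the submitters' processing notes. At Trp53 (chr11:69580344-69580373, plus strand) and Gdf15 (chr8:70632442-70632471, minus strand) a peak edge fell on the exact base of a RefSeq transcript start. Capitals mark the bases inside the peak.
Trp53 start: tgctgggattgggacTTTCCCCTCCCACGT
Gdf15 start: accccagcaggagccCTTGATGACACCTGG
Much m6A lies in a motif with the core GGAC. With the sense strand searched, the Trp53 window held GGACT across the start, from 4 bases before it to its first base. The RefSeq span of Trp53 begins 11 bp before this transcript start, so this GGACT lies inside the gene span. The 50 transcribed bases of the Gdf15 window held no GGAC. A further RefSeq start of Gdf15, at 70632095, has GGAC 14 bases after it, outside the peak. GGACT was present in 26.1% of all 32851 windows of 300 bases, and GGAC in the last 50 bases of 18.9%. Sequence under the 3′ UTR peaks was not analysed here.

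A half-site of the p53 response element, searched on both strands, was present in 8.36% of all windows, and in those of Trp53, Mdm2 and Bax. None was found in the 3 windows of Bbc3 or the 2 of Gdf15, which says only that these letters are not in those windows. The stretches are at chr11:69580274-69580303 on the plus strand for Trp53 and chr10:117710925-117710954 on the minus strand for Mdm2. For Bax the whole 250 bases before the transcript start are shown (chr7:45466899-45467148, minus strand), because its leading peak covered all of them. Capitals mark the half-site, which begins 75, 186 and 201 bases before the transcript start in the order given, and which overlaps a GGACT in Trp53.
Trp53 half-site: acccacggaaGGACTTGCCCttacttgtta
Mdm2 half-site: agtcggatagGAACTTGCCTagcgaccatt
Bax upstream: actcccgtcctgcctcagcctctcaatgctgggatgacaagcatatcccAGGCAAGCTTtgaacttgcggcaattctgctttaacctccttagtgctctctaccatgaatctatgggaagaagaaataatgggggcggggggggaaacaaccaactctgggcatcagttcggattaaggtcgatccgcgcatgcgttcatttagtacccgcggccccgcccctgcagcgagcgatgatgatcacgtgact

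The 5 genes split by sign. The peaks of Mdm2, Bbc3 and Gdf15 that passed the threshold were negative, and those of Trp53 and Bax were positive. The table's header does not name the numerator of the fold change. Given the design, a negative value likely means less m6A enrichment in Mettl3-deficient than in wild-type liver, but nothing else in the sources used here settles it. A peak was called when its deposited false discovery rate (FDR) was 0.05 or below, and whether that FDR takes in the variation between mice is not known.

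Of the 10 peaks, 4 were called negative, 5 were called positive and 1 was not called. Of all listed peaks 76.2% were called, 40.6% as negative and 35.6% as positive, so a call alone sets none of the 10 apart. In the 3′ UTR 3 of the 5 peaks were negative, against 48.9% of all peaks with that label, and 2 were positive, against 32.1%. In the 5′ UTR 1 of 5 was negative, against 23% of all, and 3 were positive, against 53.4%. With a log2 fold change of at least 1 in size as a further condition, 4 of the 10 peaks were negative, against 29% of all peaks, and 1 was positive, against 7.8%. For the leading peak of each gene, that with the smallest FDR, 3 of the 5 genes were negative, against 47.6% of all genes, and 2 positive, against 33.6%.

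**Figure D1:**
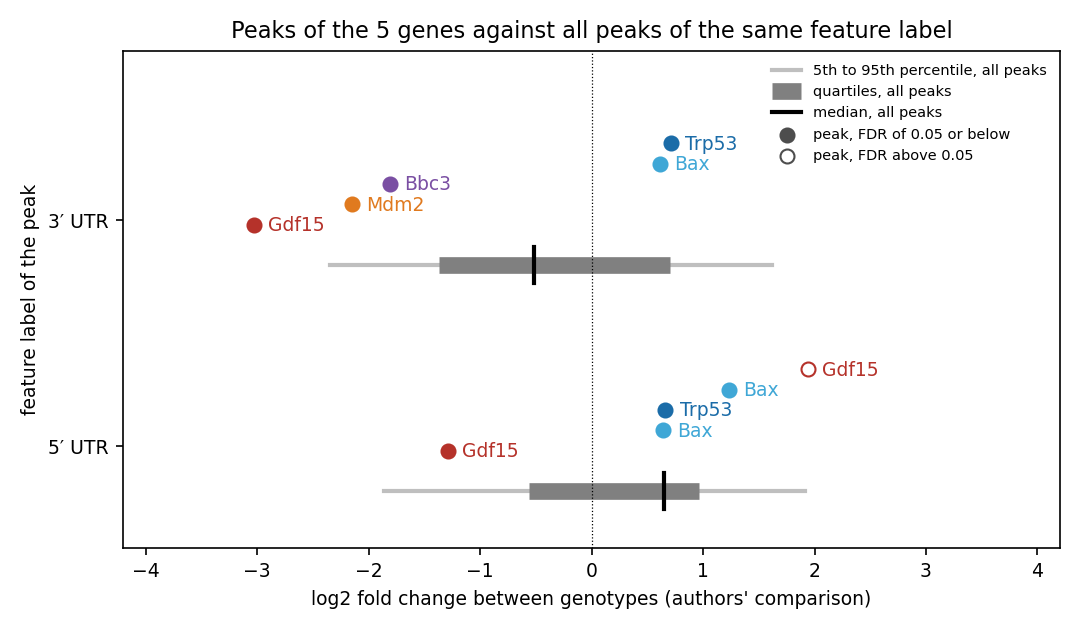
Log2 fold change (x axis, authors' comparison) of the 10 peaks of Trp53, Mdm2, Bbc3, Bax and Gdf15, by the feature label of the peak (y axis). Filled points have an FDR of 0.05 or below, the open point does not, and grey bars and black ticks give the percentiles, quartiles and median of all peaks with that label. In the 3′ UTR row, Gdf15 at -3.03, Mdm2 at -2.15 and Bbc3 at -1.81 lie left of the median of -0.52, and Bax at 0.61 and Trp53 at 0.71 lie right of it.

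Trp53 itself carried small positive changes at both ends of the transcript. The gene (ENSMUSG00000059552) spans 69580348 to 69591873 on chromosome 11 and is read on the plus strand. Its 3′ UTR peak, 271 bp wide at 69591573 to 69591843, ended 30 bp before the RefSeq end of the gene. Its log2 fold change was 0.71, or a ratio of 1.64, in the authors' deposited table, with a log10 FDR of -11. The peak labelled 5′ UTR covered 7052 bp of genome from 69580359 to 69587410, which is 61.2% of the gene, and stood at 0.66 with a log10 FDR of -4.19 in the authors' deposited table. Both values were close to the medians of called positive peaks with the same label, 0.70 in the 3′ UTR and 0.78 in the 5′ UTR. Of the 3144 called positive 3′ UTR peaks, 47.6% had a larger change than that of Trp53.

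The neighbour of Trp53 went the other way. Wrap53, a gene for a telomerase and Cajal body protein, lies head to head with Trp53 on the minus strand, with its RefSeq start at 69580250. In the authors' deposited table its 5′ UTR peak, at 69578956 to 69580255, stood at -1.46 (log10 FDR -6.64). The gap to the first peak of Trp53 was 103 bp. Libraries were made with a stranded kit, per the labels' protocols, but whether the peaks were called by strand is not given in the sources used here.

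Mdm2, the negative regulator of p53, had a single listed peak with a strong negative change. The gene (ENSMUSG00000020184) spans 117688875 to 117710758 on chromosome 10, on the minus strand. The peak, labelled 3′ UTR, lies at 117690041 to 117691207 and is 1167 bp wide, beginning 19551 bp from the transcript start and ending 1166 bp before the RefSeq end of the gene. The authors' deposited table gives it a log2 fold change of -2.15 (ratio 0.225) with a log10 FDR of -156. Of the 4799 called negative 3′ UTR peaks, whose median was -1.34, 13.9% had a larger change and 13.5% a lower FDR. No peak was listed at the start of Mdm2, so that end of the transcript gives no value.

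Bbc3 and Bax, which act one after the other in mitochondrial apoptosis, differed in sign. PUMA, the product of Bbc3, is a BH3-only protein that neutralises the survival proteins of the BCL2 family and activates BAX, which then forms pores. Bbc3 (ENSMUSG00000002083) spans 16308398 to 16318334 on chromosome 7, on the plus strand. Its single peak, labelled 3′ UTR, covers 6048 bp from 16312158 to 16318205, or 60.9% of the gene, and is tied to a retained-intron transcript. In the authors' deposited table it stood at -1.81, a ratio of 0.285, with a log10 FDR of -150. Of the called negative 3′ UTR peaks 24.9% had a larger change. Peaks on retained-intron transcripts were called negative in 24.7% of 987 cases and positive in 54.5%.

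Bax had 3 listed peaks, all called and all positive. The gene (ENSMUSG00000003873) spans 45461695 to 45466903 on chromosome 7, on the minus strand. Its 3′ UTR peak, 1610 bp wide at 45461697 to 45463306, stood at 0.61 in the authors' deposited table, a ratio of 1.53, with a log10 FDR of -19.3. A peak labelled 5′ UTR on a retained-intron transcript, 3029 bp wide at 45463395 to 45466423, stood at 0.64 there, a ratio of 1.56, with a log10 FDR of -32, all in the authors' deposited table. These 2 peaks, which lie wholly within the gene, were slightly below the medians of called positive peaks of their label, 0.70 and 0.78.

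The peak of Bax with the smallest FDR rests mostly on sequence outside the gene. It covers 9751 bp from 45465984 to 45475734, of which 9.43% (920 bp) lie inside the RefSeq span and 8831 bp lie upstream of it, and it shares 440 bp with the peak next to it. The authors' deposited table gives it a log2 fold change of 1.23 (ratio 2.35) with a log10 FDR of -56.2. Its far end reaches into Dhdh, a dehydrogenase gene at 45472956 to 45488888. Inside it lie 2 peaks assigned to Dhdh, which stood at -1.07 (45470987 to 45471437) and at 0.53 (45472696 to 45473116) in the authors' deposited table, both called. With peaks that lie less than 50% inside their gene left out, a condition added after the data were seen, the leading value of Bax was 0.64 in place of 1.23, in the authors' deposited table.

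**Figure D2:**
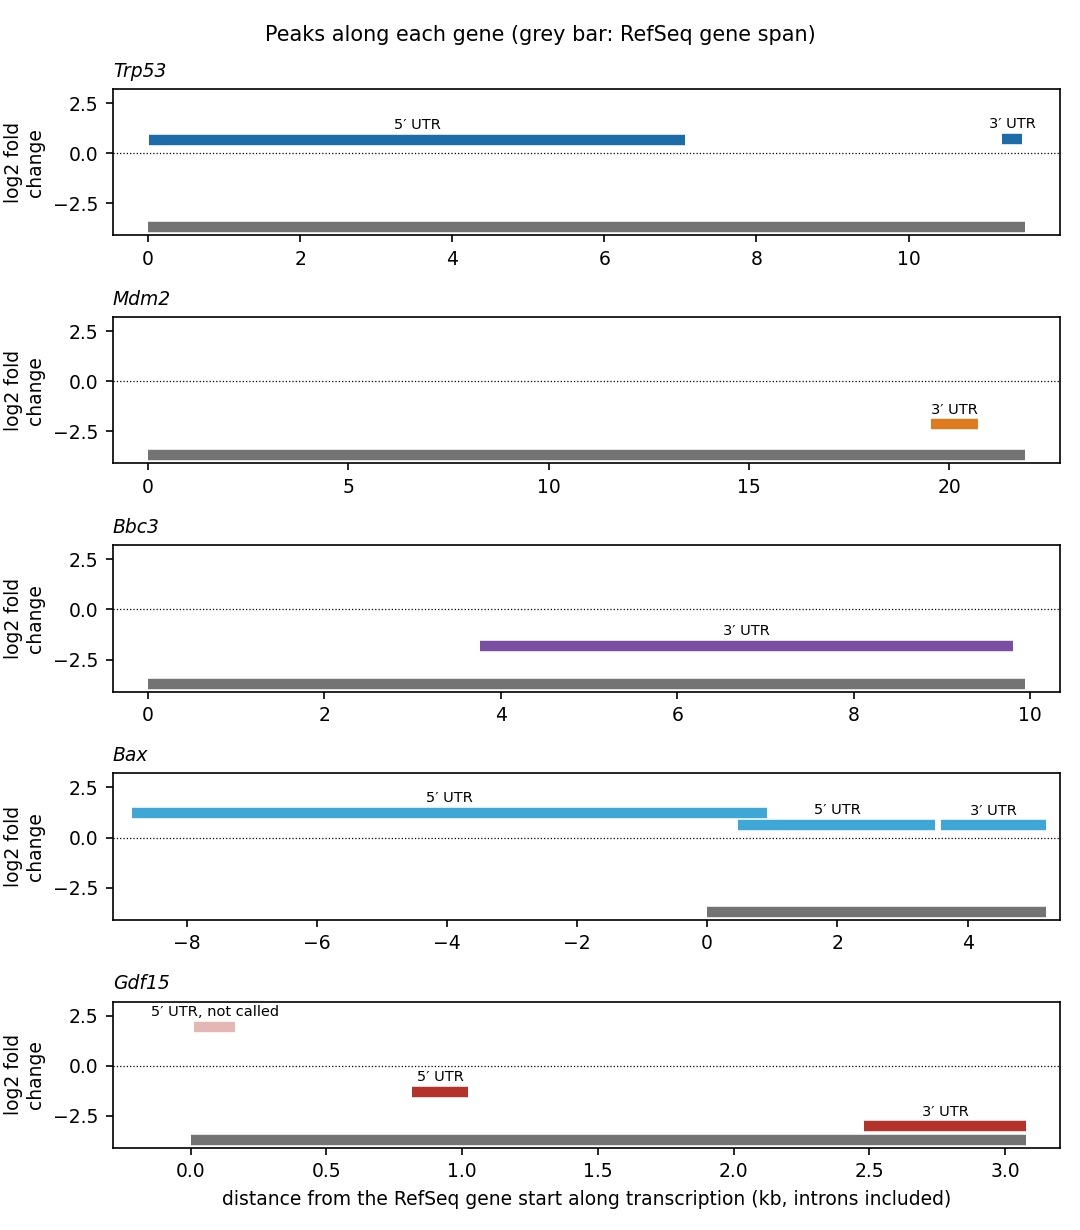
Log2 fold change (y axis, authors' comparison) of each listed peak against its distance from the RefSeq gene start in the direction of transcription (x axis, kb on the genome with introns), with a panel for each gene. Coloured bars span the peaks, the pale bar is the peak that was not called, and the grey bar at the bottom of each panel is the gene. The peaks of Mdm2 and Bbc3 and the 2 called peaks of Gdf15 lie below 0, those of Trp53 and Bax lie above it, and the 1.23 peak of Bax extends 8831 bp upstream of the gene.

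Gdf15, a secreted member of the TGF-beta superfamily that the liver releases under mitochondrial and other stress, had the largest change of the 5 genes. The gene (ENSMUSG00000038508) spans 70629393 to 70632470 on chromosome 8, on the minus strand. Its 3′ UTR peak, 598 bp wide at 70629393 to 70629990, begins on the last base of the RefSeq gene. The authors' deposited table gives a log2 fold change of -3.03 (ratio 0.122) with a log10 FDR of -242. Only 212 of the 17503 listed peaks had a lower log2 fold change. Among the called negative 3′ UTR peaks, 91 of 4799 (1.9%) had a larger change and 8.52% a lower FDR.

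The changes of Gdf15 differed along the transcript. A narrow peak labelled 5′ UTR, 210 bp at 70631447 to 70631656, stood at -1.29, a ratio of 0.409, with a log10 FDR of -8.07 in the authors' deposited table. That is close to the median of -1.24 of the 978 called negative 5′ UTR peaks. At the transcript start shown above, a 150 bp peak at 70632307 to 70632456 stood at 1.94 in the authors' deposited table, but with a log10 FDR of -0.4 and a p of 0.29 it was not called. The mean over the 3 peaks of Gdf15 was -0.79, against -3.03 for the leading peak.

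Trp53, Bax and Gdf15 held called peaks in both UTRs, as did 1475 genes in all. Leading values of the same sign at both ends were common there, positive in 576 genes (39.1%), as in Trp53 and Bax, and negative in 292 (19.8%), as in Gdf15. The difference of the leading peaks, 3′ UTR minus 5′ UTR, was 0.05 in Trp53, -0.62 in Bax and -1.74 in Gdf15, beside a median of -0.45 over all such genes. The value of Bax rests on its 1.23 peak, and with the 0.64 peak that lies wholly in the gene it was -0.03. A lower difference than that of Gdf15 was seen in 350 of these genes (23.7%).

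**Figure D3:**
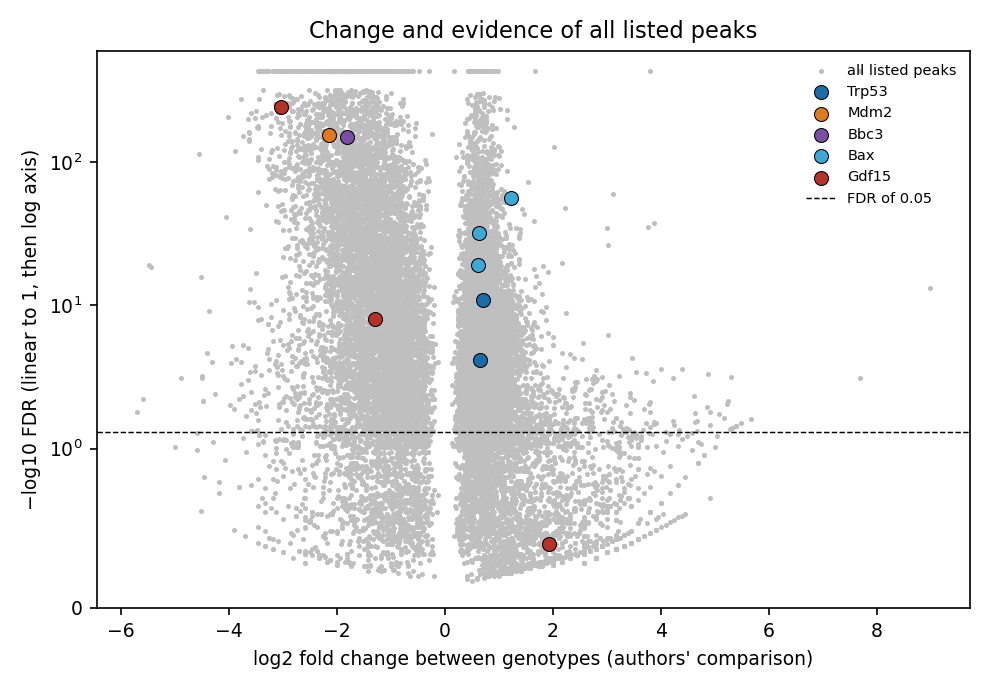
Log2 fold change (x axis) against -log10 FDR (y axis, linear to 1 and logarithmic above) of all 17503 listed peaks in grey, with the 10 peaks of the 5 genes in colour, from the authors' comparison. The dashed line is the FDR of 0.05. The peaks of Gdf15 at -3.03, Mdm2 at -2.15 and Bbc3 at -1.81 have far lower FDR values than those of Trp53 at 0.66 and 0.71, and the Gdf15 peak at 1.94 lies below the line.

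Genes with the most similar set of values were sought among those with the same number of peaks and the same feature labels from 5′ to 3′, by the Euclidean distance of their log2 fold changes. This was possible for 7787 of the 10277 genes, those with a RefSeq window at a transcript start, from which the strand was taken. Of 858 genes with 1 peak in each UTR, Ube2b (distance 0.01), Naxe (0.0141) and Itpa (0.02) were nearest to Trp53. Among 2487 other genes with a single 3′ UTR peak, 4 shared the value of Mdm2, namely Efna2, Sdhaf2, Yeats4 and Zswim9, and 8 shared that of Bbc3, among them Ankrd27 and Dnajb6. Of 101 genes with the peak labels of Bax and Gdf15, which have the same order of labels, Rcn3 (0.226), Ptms (0.296) and Tpm4 (0.309) were nearest to Bax. The nearest to Gdf15, Sphk2, was at a distance of 2.09, followed by Dcaf8 at 2.1 and Tfam at 2.43. Peaks that were not called enter these distances, among them the 1.94 peak of Gdf15. Those of Bax include its 1.23 peak, which lies mostly outside the gene. In these 102 genes, Gdf15 included, none had a lower 3′ UTR value than Gdf15, the next being Arhgef26 at -2.79 in the authors' deposited table.

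In 5 lists of genes around the p53 axis, 62 of 86 genes had a listed peak. By leading peak 37 were negative, 14 positive and 11 not called, which is 59.7% negative and 22.6% positive, beside 47.6% and 33.6% of all genes. The median leading value of the 62 genes was -1.02, beside -0.52 for all genes. Genes are not independent replicates, and no test was made of the lists. The lists were written with earlier results of these data known, so these shares are a description only. The 42 genes of p53 signalling in KEGG given under Other observations, 21 of them on the lists, were 42.9% negative with a median of 0.45.

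Of 14 regulators of p53, 13 were listed, with 7 negative, 4 positive and 2 not called, and a median of -0.93. That is 53.8% negative and 30.8% positive, close to the 47.6% and 33.6% of all genes. The authors' deposited table gives -2.29 for Usp10, a deubiquitinase that stabilises p53, and -1.65 for the acetyltransferase gene Ep300. Usp10 also held a positive exon peak that passed the threshold, at 0.27 in the authors' deposited table. Rpl11 (0.69) and Rpl5 (0.49), ribosomal proteins that bind MDM2 under nucleolar stress, passed the threshold on the positive side in the authors' deposited table. Chosen after their values were seen, as partners of Mdm2 in the feedback on p53, Mdm4 stood at -1.03 and the phosphatase gene Ppm1d at -1.78 in the authors' deposited table, both called. Picked in this way, they do not stand for the list. Its remaining positive genes were Rchy1 (0.65) and Kat5 (0.59) in the authors' deposited table, both called.

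Of 12 genes of damage kinases and checkpoint factors, 6 were listed, with 4 negative, 1 positive and 1 not called, and a median of -1.32. That is 66.7% negative and 16.7% positive of only 6 genes, beside 47.6% and 33.6% of all genes. In the authors' deposited table H2ax, the histone variant phosphorylated at DNA breaks, stood at -1.97, Rad50 of the break-sensing complex at -1.79 and Atrip, the partner of the kinase ATR, at -1.02. Mdc1, which binds phosphorylated H2AX, had called peaks of both signs in the authors' deposited table, at 1.05 in the 3′ UTR and -1.31 in an exon.

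Among 21 p53 target genes of arrest, repair and stress, 17 were listed, with 13 negative, 3 positive and 1 not called, and a median of -1.28. That is 76.5% negative and 17.6% positive, beside 47.6% and 33.6% of all genes. The authors' deposited table gives -2.83 for Phlda3, a repressor of AKT, -2.04 for the antiproliferative gene Tob1 and -1.02 for Ddit4, an inhibitor of mTORC1. All 4 peaks of Aen, a nuclease gene induced by p53, passed the threshold on the negative side in the authors' deposited table, from -1.59 to -2.51. Rps27l was positive, at 0.93 in the authors' deposited table. The arrest gene Cdkn1a (p21), named after its value was seen because it is the best known target, had 1 peak at 0.76 in the authors' deposited table, where its log10 FDR of -0.2 missed the threshold.

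In the BCL2 family and apoptosis list, 16 of 24 genes were listed, with 6 negative, 4 positive and 6 not called, and a median of -0.79. The shares, 37.5% negative and 25% positive, were both below the 47.6% and 33.6% of all genes. The survival genes Mcl1 (-1.52) and Bcl2l1 (-1.23) and the BH3-only gene Bid (-2.02) were negative in the authors' deposited table. Mcl1 also held a called peak at 0.63 in its 3′ UTR, and Bid one at 0.59, in the authors' deposited table. Bik (1.17), another BH3-only gene, and the cytochrome c gene Cycs (0.61) were on the positive side of the authors' deposited table and passed the threshold. When each gene was given the mean of its peaks, the median of this list turned to 0.21.

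Of 15 genes of the integrated stress response, the pathway that also induces Gdf15, 10 were listed, with 7 negative, 2 positive and 1 not called, and a median of -1.29. That is 70% negative and 20% positive, beside 47.6% and 33.6% of all genes. The 3 peaks of Eif2ak3, which encodes the endoplasmic reticulum stress kinase PERK, all passed the threshold, at -2.51, -2.55 and -3.29 in the authors' deposited table. Cebpg (-2.13) and Cebpb (-1.64), transcription factor genes of the bZIP class, were negative, whereas Atf4 (0.71) and Atf5 (0.41), the factors translated under stress, were positive in the authors' deposited table. The only peak of Cebpb is wide, from 167661509 to 167689822 on chromosome 2. How much of a peak lies inside its gene was not examined for the list genes. Rpl5, Rpl11, Rps27l and Cycs have near-identical copies in the genome, among which reads can be shared.

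**Figure D4:**
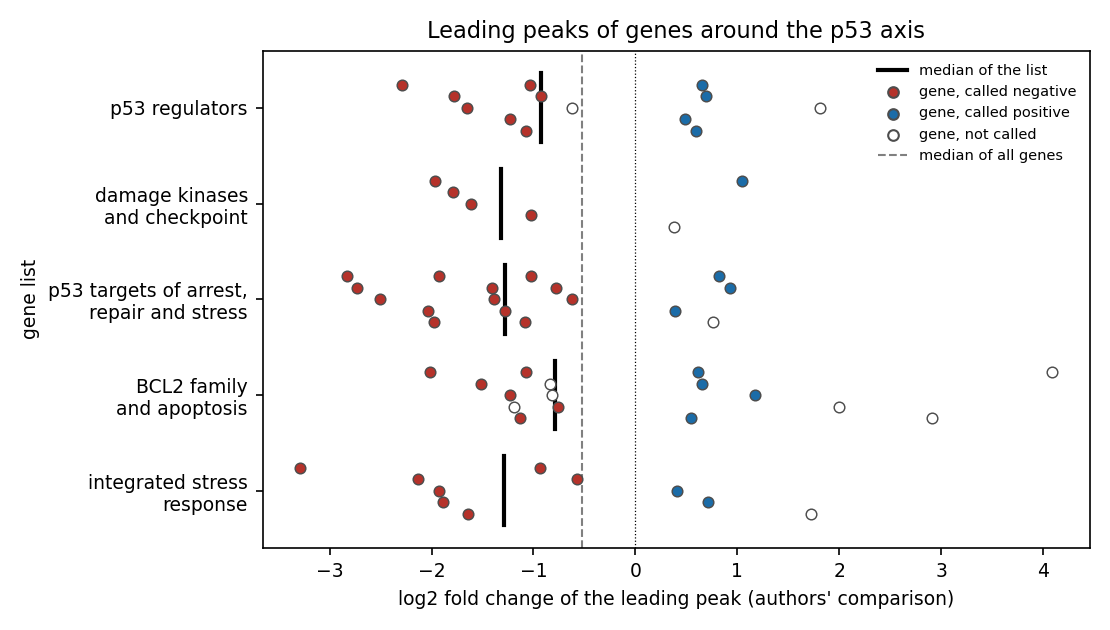
Log2 fold change of the leading peak (x axis, authors' comparison) of each listed gene in 5 gene lists (y axis), with 1 point per gene. Red points are called negative, blue points called positive and open points not called, black bars are list medians, and the dashed line is the median of all genes at -0.52. All 5 list medians, from -0.79 to -1.32, lie left of the dashed line. That of the BCL2 family list moves to 0.21 with the mean of each gene's peaks. The widest spread of all points is in the BCL2 family list, where those furthest right, Casp8 (4.09) and Hrk (2.91), were not called. The called genes of that list run from -2.02 (Bid) to 1.17 (Bik).

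All 4 hepatocyte markers looked up (Alb, Apoa1, Ttr and Hnf4a) had a listed peak, as did all 3 stellate markers, 2 of 3 endothelial, 2 of 3 macrophage and 1 of 3 cholangiocyte markers. With listed peaks in 10277 genes, these counts cannot check the tissue or its mix of cells. A listed peak shows that a transcript was captured but not at what level. In bulk liver, fewer cells of a type and less signal per cell cannot be told apart.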

How the data were processed

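The study sequenced IP and input mRNA from livers of Mettl3-deficient and wild-type mice. The submitters' processing notes name HISAT2 2.1.0 and mm10. How peaks were called and compared, and how replicates entered, is not given in the sources used here. The authors' table has 1 row per peak, with a log2 fold change and a log10 FDR, both scores of the authors per the file headers, the FDR with a floor of -434. Its p-value is rounded to 2 decimals as deposited. Widths are on the genome and include introns.

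Of 17692 rows, 189 without a gene name, whose last cells stand in another order, were left out, and none of them overlapped the 5 genes. Planned count models and the search for motifs under peaks were not run, because the table holds no values per library and no genome was used. Calls, counts, medians and ranks were computed with Python 3.11.15, numpy 2.4.6 and pandas 2.3.3. Only the counts of calls by sign and the set of genes with a called leading peak were checked on simulated data. Gene spans, strands and sequences came from RefSeq on GRCm38.p6.

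The members and lists were chosen with earlier results of these data known. Lists were matched by symbol, and 1 gene, H2ax, by synonym. Named from each list were up to 4 called genes by FDR, with the most positive and the most negative called gene. Alternatives were another FDR, a minimum change, centring, peak width, position in the gene and the value that stands for a gene.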

Additional observations from a re-analysis of the deposited data

How the results depend on the processing

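The 4 negative and 5 positive calls of the 5 genes were the same in number at an FDR of 0.01, after centring on the median of all listed peaks (0.34), with the rows without a gene name, and with peaks overlapping the RefSeq span. With peaks of at most 1000 bp, 2 negative and 1 positive calls were left, because fewer peaks were then eligible. The 2 negative peaks were both of Gdf15, and the positive peak was that in the 3′ UTR of Trp53. All peaks of Mdm2, Bbc3 and Bax were wider. The share of all peaks of that width that were called was not computed. With a change of at least 1 in size, all 4 negative calls and 1 positive call were left. The positive call left was the 1.23 peak of Bax, of which 9.43% lies inside the gene. The other called positive peaks stood at 0.61 to 0.71. No leading value changed sign. Centred, they were 0.37 for Trp53, -2.49 for Mdm2, -2.15 for Bbc3, 0.89 for Bax and -3.37 for Gdf15. As means over peaks they were 0.685 for Trp53, 0.83 for Bax and -0.79 for Gdf15, and Bax stood at 0.64 among peaks at least 50% inside the gene. Over the 5 lists, 31 of the 62 genes were negative and 2 positive with a change of at least 1. Of all peaks, rather than genes, 29% were negative and 7.8% positive at that size. The median of the 5 lists was -1.36 centred and -0.75 with means. The median of the BCL2 family list turned to 0.21 with means. The share of all peaks called was 66.9% at an FDR of 0.01 and 36.8% with a change of at least 1. No paired analysis was possible because the table carries no values per replicate. Leaving out replicates and other normalizations were not run for the same reason. Depth is unknown, so what it limits cannot be stated.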

Other observations

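The authors' deposited table assigns 42 genes besides Trp53, Mdm2, Bbc3 and Bax to p53 signalling in KEGG, a set added after the data were seen, of which 21 are also on the 5 lists. By leading peak, 18 of them were negative, 17 positive and 7 not called, which is 42.9% negative and 40.5% positive, beside 47.6% and 33.6% of all genes. Their median was 0.45, beside -1.02 for the 5 lists and -0.52 for all genes, and the difference between the sets was not tested. The 21 of them that are on none of the 5 lists held 8 negative, 11 positive and 2 genes not called (38.1% negative and 52.4% positive), with a median of 0.56. In the authors' deposited table the ubiquitin ligase gene Siah1a (-1.81), the stress sensor gene Sesn3 (-2.57), the ferroptosis suppressor gene Aifm2 (-1.62) and the kinase gene Cdk4 (-1.05) were negative and called. A further peak of Cdk4 was positive and passed the threshold (0.72, authors' deposited table). Cyclin genes had both signs, since the authors' deposited table gives 2.41 for Ccnb2, 1.51 for Ccnd2 and 1.42 for Ccnd3, but -1.78 for Ccne1, all called and, apart from Ccnb2, named after their values were seen.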
